A study of Mus musculus with 12 samples.

Results

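The miR-290 to miR-295 cluster is a run of microRNA hairpins that lies close together on mouse chromosome 7. Of 504 microRNA assays measured by quantitative PCR in mouse epididymal fat, 10 were named miR-290 to miR-295. The 4 described here are mmu-miR-290a-5p, mmu-miR-291b-5p, mmu-miR-291b-3p and mmu-miR-295-3p (mmu stands for mouse and is left out below). They were chosen by their measured levels in these same samples, which differed between diet groups, against the control diet or among the high-fat groups. Their differences between groups are therefore given as a description, and no p-value is given for them. Counts of these rows past a threshold are printed only beside the same count for all microRNAs, and nothing is read from them. The other 6 rows, miR-291a-5p, miR-291a-3p, miR-292-5p, miR-292-3p, miR-293-3p and miR-294-3p, are given as context.

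In mouse embryonic stem cells this cluster is transcribed as 1 long primary RNA, which is cut into hairpins, and each hairpin can yield a mature microRNA from its 5′ arm (5p), its 3′ arm (3p) or both. The cluster is among the most abundant microRNA sources of those cells and is largely silenced as they differentiate, though early germ cells and the placenta also use it. Several of its 3p microRNAs share a seed, the bases that pair with target messenger RNAs. These 3p microRNAs are known for repressing inhibitors of the step from growth into DNA replication, among them Cdkn1a and Lats2. The miR-302 microRNAs, on another chromosome, carry a related seed and are likewise known from pluripotent cells.

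The mature sequences show what each assay was aimed at and how alike the rows are. They are given from RefSeq (GRCm38.p6), 5′ to 3′, with the seed (bases 2 to 8) in capitals. The 4 chosen rows come first, then the 2 arms of the near-copy hairpin miR-291a and 2 further rows that share a seed with a chosen one.
miR-290a-5p: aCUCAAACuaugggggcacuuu
miR-291b-5p: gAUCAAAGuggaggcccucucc
miR-291b-3p: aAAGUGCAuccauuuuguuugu
miR-295-3p: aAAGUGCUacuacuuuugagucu
miR-291a-5p: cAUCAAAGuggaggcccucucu
miR-291a-3p: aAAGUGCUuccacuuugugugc
miR-292-5p: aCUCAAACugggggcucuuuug
miR-294-3p: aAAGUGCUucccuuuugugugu

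The 4 chosen rows carry 4 different seeds. miR-290a-5p has the seed of miR-292-5p. miR-291b-5p has that of miR-291a-5p. miR-295-3p has that of miR-291a-3p and miR-294-3p, and miR-291b-3p differs from these in the last seed base. Counted from base 1 at the 5′ end of the miR-291a form, miR-291b-5p differs from miR-291a-5p by C1G and U22C, and 20 of 22 bases are identical. On the other arm, miR-291b-3p differs from miR-291a-3p by U8A, C13U, G19U and C22U, and 18 of 22 bases are identical. With so few differences, signal from 1 form in the assay of the other was not tested.

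On GRCm38.p6 the cluster spans chr7:3218626-3220841, 2216 bases that hold 7 hairpins on the plus strand. RefSeq places 2 further hairpins, Mir290b and Mir292b, on the minus strand within Mir290a and Mir292. In this order along the plus strand, miR-290a-5p lies in hairpin Mir290a at chr7:3218639-3218660, miR-291b-5p and miR-291b-3p lie in hairpin Mir291b at chr7:3219494-3219515 and chr7:3219529-3219550, and miR-295-3p lies in hairpin Mir295 at chr7:3220815-3220837. The chosen rows thus sit at both ends and in the middle of the cluster, with miR-291a, miR-292, miR-293 and miR-294 between them. Of the 10 rows, 9 matched a RefSeq mature sequence, and miR-292-3p is named only.

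The study asked how high-fat feeding in different periods of life is reflected in the microRNAs of fat. All mice were male C57BL/6J wild type animals killed at week 23. The high-fat diet (45% of energy from fat) was given from mating until that age (WL), from mating until weaning (UL), or only in utero through the dam (UT), and the matching diet (10% of energy from fat) was given to the controls (CD). For the microRNA measurements, 12 mice of each group were combined into 3 pools, so there were 12 pools, and nothing in the labels says whether littermates were split between pools. The p-values below measure the spread between pools.

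Each value began as a threshold cycle (Ct), the PCR cycle at which an assay's signal appeared, so a later Ct means less template. To obtain a relative level, the Ct of a microRNA was subtracted from the average Ct, in the same pool, of the 466 microRNAs that had a value in every pool. It is in cycles, on a log2 scale if each cycle doubles the template, and a higher value means more template. Those average Ct values lay between 24.57 and 25.06 over the pools, and each pool had values for 490 to 504 microRNAs. In tissue RNA, fewer cells of a type and less microRNA per cell cannot be told apart.

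miR-291b-5p stood furthest from the control diet. Its relative level was -2.34, -2.85 and -3.51 in the 3 WL pools, -3.01, -2.78 and -2.66 in the 3 UL pools and -3.28 in the only UT pool with a value (UT3), against -11.12 in the only CD pool with a value (CD1). The 7 high-fat pools with a value lay close together and far above CD1, while the assay had no value in UT1, UT2, CD2 and CD3. In cycles, the signal appeared at 27.24 to 28.50 in the high-fat pools and at 35.92 in CD1.

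The difference of miR-291b-5p from CD was 8.22 (SE 0.55) in WL, 8.30 (SE 0.55) in UL and 7.84 (SE 0.67) in UT on the log2 scale, all set against that single CD pool. These SEs hold no spread within CD or within UT, which had 1 pool each with a value. The files do not say whether a missing value means that no product formed or that the reaction failed. With missing values and all later cycles set to a Ct of 35, the difference was 7.27 in WL, 7.36 in UL and 2.15 in UT. The UT value moved most because 2 of its 3 pools were then placed at that limit together with the CD pools. Without CD1 there was no CD value and no difference could be computed. The same held with a Ct over 35 taken as missing, since the signal in CD1 appeared at 35.92.

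miR-291b-3p, from the opposite arm of the same hairpin, was the weakest signal of the cluster. Its relative level was -8.62, -8.00 and -7.20 in WL pools, -7.68, -8.27 and -7.47 in UL pools and -6.98, -6.48 and -7.40 in UT pools, against -8.81, -11.48 and -9.39 in CD pools. Every high-fat pool was above every CD pool, by a narrow margin between WL1 and CD1. CD2 was the lowest pool, at a Ct of 36.27, and the earliest signal of this assay in any pool was at 31.05.

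The difference of miR-291b-3p from CD was 1.95 in WL, 2.09 in UL and 2.94 in UT, each with an SE of 0.62. CD2 carried much of it: without that pool the difference was 1.16 in WL, 1.30 in UL and 2.15 in UT. Subtracting the median of the 10 assays nearest in accession order, described below, gave -0.58 in WL and -0.45 in UL, which are turned in direction, and 0.69 in UT.

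miR-295-3p, a carrier of the shared stem cell seed, was highest in UT, and unevenly so. Its relative level was -5.59, -6.19 and -6.24 in WL pools, -7.27, -6.08 and -6.66 in UL pools and -4.30, -5.64 and -2.19 in UT pools, against -5.56, -7.24 and -6.07 in CD pools. UT3 stood above all other pools and UT1 came next, whereas UT2 lay just below CD1, so UT and CD overlapped. The difference from CD was 0.28 in WL, -0.38 in UL and 2.25 in UT, each with an SE of 0.74. Without UT3 the UT difference was 1.32.

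miR-290a-5p, from the first hairpin of the cluster, moved least. Its relative level was -2.42, -2.19 and -2.08 in WL pools, -2.28, -2.31 and -2.60 in UL pools and -1.68, -1.49 and -1.43 in UT pools, against -2.63, -2.06 and -1.96 in CD pools. The 3 UT pools were the 3 highest of the 12, and the other groups shared 1 range. The difference from CD was -0.01 in WL, -0.18 in UL and 0.68 in UT, each with an SE of 0.28. Scaled to the reference RNA RNU-43 in place of the mean microRNA, the UT difference was 1.42, and the same scaling shifted the median of all microRNAs by 0.74 in that comparison.

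**Figure D1:**
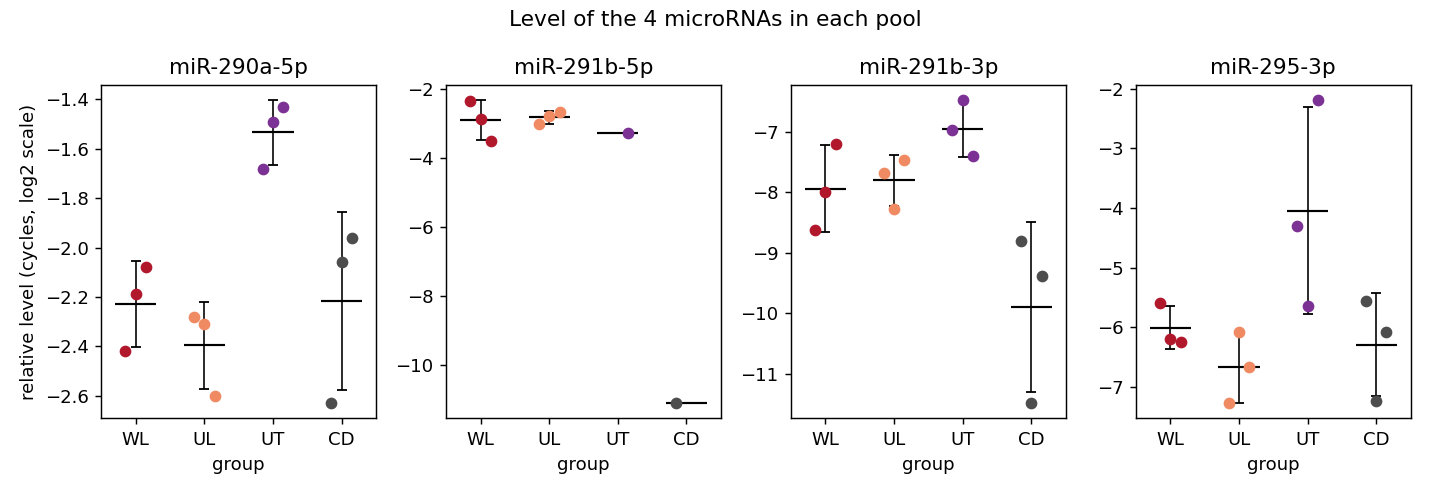
Relative level (cycles, log2 scale) of the 4 chosen microRNAs in the pools of the WL, UL, UT and CD groups. Points are pools, horizontal bars are group means and whiskers are 1 SD where a group has 3 pools; miR-291b-5p has points for 8 of the 12 pools, and its CD value of -11.12 is a single pool.

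The order of the group levels thus differed among the 4 microRNAs. For miR-290a-5p, WL averaged -2.23 ± 0.18, UL -2.39 ± 0.18, UT -1.53 ± 0.13 and CD -2.22 ± 0.36 (mean ± SD, n = 3 pools each). UT was highest, and WL, UL and CD overlapped. For miR-295-3p, WL averaged -6.01 ± 0.36, UL -6.67 ± 0.59, UT -4.04 ± 1.74 and CD -6.29 ± 0.86. From high to low the order was UT, WL, CD and UL, and neighbours in it overlapped. For miR-291b-3p, WL averaged -7.94 ± 0.71, UL -7.80 ± 0.42, UT -6.95 ± 0.46 and CD -9.89 ± 1.40, with overlap between WL and each of the other 2 high-fat groups. For miR-291b-5p, WL averaged -2.90 ± 0.58 and UL -2.81 ± 0.18, and these overlapped.

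A linear model across all 504 microRNAs (limma, Benjamini-Hochberg adjustment, threshold 0.05) called 1 of the 4 chosen rows higher in WL than in CD, where it called 0.595% of all microRNAs higher. It called 1 of 4 higher in UL than in CD, again with 0.595% of all microRNAs higher. In UT against CD it called 2 of 4 higher, with 1.19% of all microRNAs higher. Of the 3 chosen rows complete in the groups, 1 in WL, 1 in UL and 2 in UT (miR-291b-3p each time, with miR-290a-5p in UT) lay above CD without overlap, beside 5.82%, 3.64% and 7.08% of all complete microRNAs. The row called each time was miR-291b-5p, whose CD value is 1 pool and whose UT value is 1 pool, joined in UT by miR-291b-3p. Since the rows were picked for their group differences, these counts are no test of them. miR-291b-3p in UT was past the threshold in 8 of 25 other settings of the processing. Over 26 such settings, 1 to 12 of all microRNAs passed in UT against CD, and nothing is read from this.

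None of the 6 context rows passed the test against CD. In WL the differences ran from -0.66 to -0.09, with 0 of 6 above 0 (limma adjusted p = 0.762 to 0.978). In UL the differences ran from -0.31 to 0.21 (limma adjusted p = 0.995 for each), and in UT from -0.17 to 0.50 with 5 of 6 above 0 (limma adjusted p = 0.685 to 0.97). The median over all 10 rows of the cluster was -0.12 in WL, -0.06 in UL and 0.48 in UT, beside medians over all microRNAs of -0.06, -0.07 and -0.01. The choice of rows named no threshold, and the 6 context rows are those it left out for lack of a group difference. That none of them passed thus follows at least in part from the choice, and nothing is read from it. In UT, miR-290a-5p at 0.68 was the chosen row with the smallest difference, and miR-291a-3p at 0.50 the context row with the largest.

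miR-294-3p, a further carrier of the shared seed, came nearest to a separation among the context rows. It averaged -2.07 ± 0.39 in WL pools, against -1.46 ± 0.08 in CD pools, and the 2 groups did not overlap (SD, n = 3 pools each, limma adjusted p = 0.762). Such separation in either direction was found in 11% of the microRNAs complete in WL and CD.

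**Figure D2:**
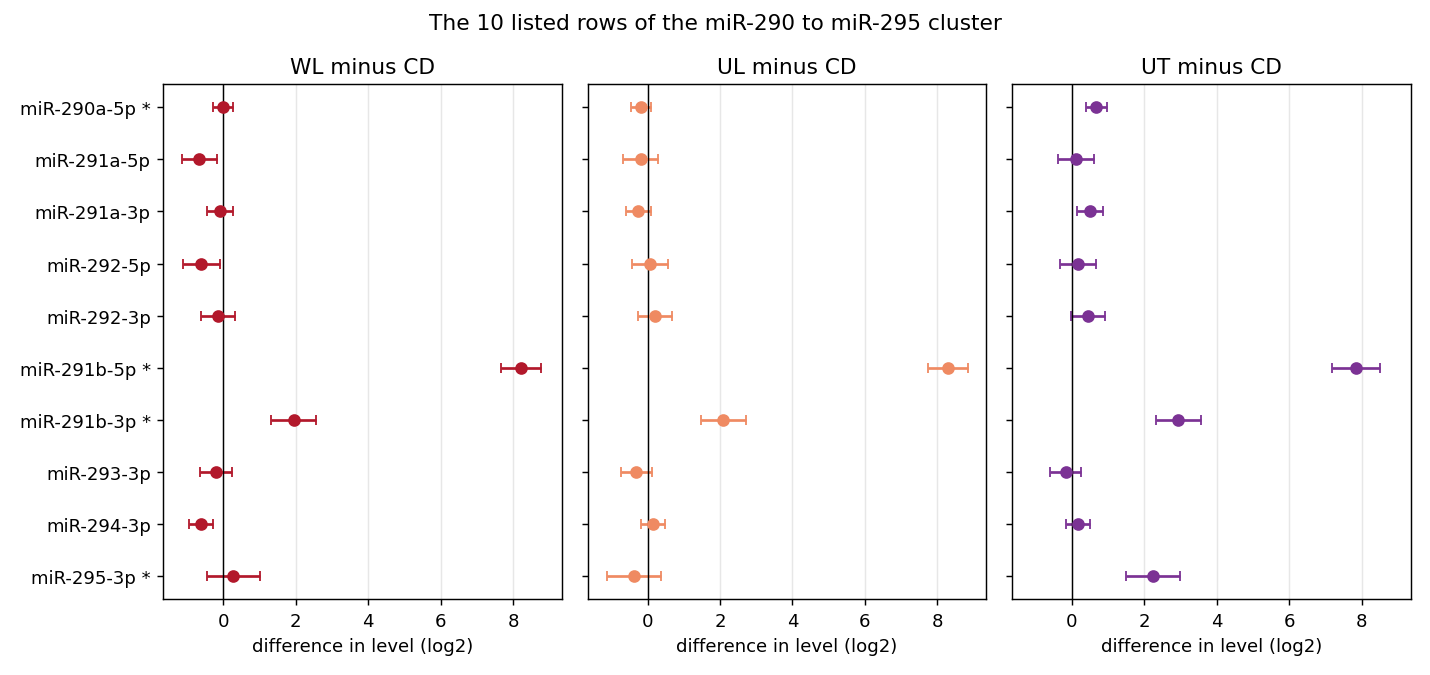
Difference in relative level (log2, with the standard error) of the 10 rows named miR-290 to miR-295 between each high-fat group and CD. Asterisks mark the chosen rows; miR-291b-5p lies near 8 in all 3 comparisons, and the 6 context rows lie between -0.66 and 0.50.

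The high-fat groups were also compared with each other, where the CD pools do not enter the differences. In these 3 comparisons 0 of the 504 microRNAs (0%) passed the limma threshold after adjustment, while 27 in WL against UL (5.36%), 79 in WL against UT (15.7%) and 40 in UL against UT (7.94%) had an unadjusted p under 0.05. The 4 rows were chosen for group differences of any kind, so their values here are again a description. The intervals given for them below are adjusted neither for this choice nor for the number of microRNAs. They show the spread between pools, which was estimated over all 4 groups with the CD pools included. Whether an interval holds 0 is no test of a difference.

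miR-295-3p was lower in UL than in UT by 2.63, a difference of -2.63 (SE 0.74, 95% interval -4.26 to -1.0), and all 3 UL pools were below all 3 UT pools. In WL against UT its difference was -1.97 (SE 0.74, 95% interval -3.59 to -0.34). UT3 weighed on both: without that pool the difference was -1.70 in UL against UT and -1.04 in WL against UT. For miR-290a-5p the difference was -0.86 in UL against UT (95% interval -1.48 to -0.25) and -0.70 in WL against UT (95% interval -1.31 to -0.08). Its UT pools overlapped neither those of WL nor those of UL, and 19.3% of microRNAs complete in WL and UT were so separated. The differences of the context rows had the same sign, with 0 of 6 above 0 in either comparison. The same count over all microRNAs was not made, so nothing is read from it. The context rows ran from -0.78 to -0.04 in WL against UT (median -0.69, limma adjusted p = 0.283 to 0.985). In UL against UT they ran from -0.75 to -0.01 (median -0.19, limma adjusted p = 0.601 to 0.988). The medians over all microRNAs were -0.09 in WL against UT and -0.03 in UL against UT.

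In the pools with a value, the 2 arms of miR-291b showed smaller contrasts between the high-fat groups than against CD. miR-291b-3p had a difference of -0.85 in UL against UT (95% interval -2.22 to 0.52) and -0.99 in WL against UT (95% interval -2.36 to 0.38). Its UL and UT pools did not overlap. Neither did those of miR-290a-5p, miR-295-3p and the context row miR-291a-3p, and 13.3% of all microRNAs complete in both groups were so separated. Since the chosen rows were picked for group differences, nothing is read from this. miR-291b-5p, with 1 UT pool, had 0.46 in UL against UT and 0.38 in WL against UT (SE 0.55 each). These leave out UT1 and UT2, which had no value. With missing and late values set to a Ct of 35, the differences were 5.21 and 5.12 (SE 1.51 each), so they depend on how those pools are treated.

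WL and UL, which share exposure until weaning and differ in the diet afterwards, had overlapping pools in the 4 chosen rows. The differences were 0.16 for miR-290a-5p, -0.09 for miR-291b-5p, -0.14 for miR-291b-3p and 0.66 for miR-295-3p on the log2 scale. The intervals were wide enough to hold sizable effects, from -1.51 to 1.23 for miR-291b-3p and from -0.97 to 2.29 for miR-295-3p. Their width also holds the spread of the UT and CD pools. With only WL and UL fitted, the SE was 0.45 for miR-291b-3p and 0.41 for miR-295-3p, against 0.62 and 0.74 here. Among the context rows, miR-294-3p was lower in every WL pool than in any UL pool, with a difference of -0.77 (limma adjusted p = 0.805, unadjusted p = 0.0387), and 9.88% of microRNAs were so separated in either direction.

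The 2 arms of a hairpin are cut from 1 precursor, so their Ct values were set against each other within each pool, which needs no scaling. For miR-291b the 3p signal came later than the 5p signal by 5.04 ± 1.30 cycles in WL (SD, n = 3 pools), 4.99 ± 0.44 cycles in UL (SD, n = 3 pools) and 4.12 cycles in UT3. In CD1 the order was turned, with a difference of -2.31 cycles. The near-copy hairpin miR-291a kept its order in all 12 pools, with the 3p signal later by 7.21 to 9.51 cycles and a median of 8.68. For miR-292 the 3p signal was earlier in all 12 pools, by a median difference of -3.34 cycles (range -3.94 to -2.34).

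The same arms of the 2 miR-291 hairpins, which are near-identical in sequence, can be set side by side too. miR-291b-5p came later than miR-291a-5p by a mean of 6.99 cycles in WL and 7.38 cycles in UL and by 8.31 cycles in UT3, against 15.42 cycles in CD1. miR-291b-3p came later than miR-291a-3p by 3.8 ± 0.82 cycles in WL, 3.5 ± 0.36 in UL and 3.40 ± 0.19 in UT, against 5.84 ± 1.98 in CD (SD, n = 3 pools each). miR-291a-5p and miR-291a-3p, both steadier over the pools, had standard deviations of 0.61 and 0.44 cycles. A Ct difference between 2 assays also holds any difference in how well each assay amplifies, so only its change between pools is read here.

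**Figure D3:**
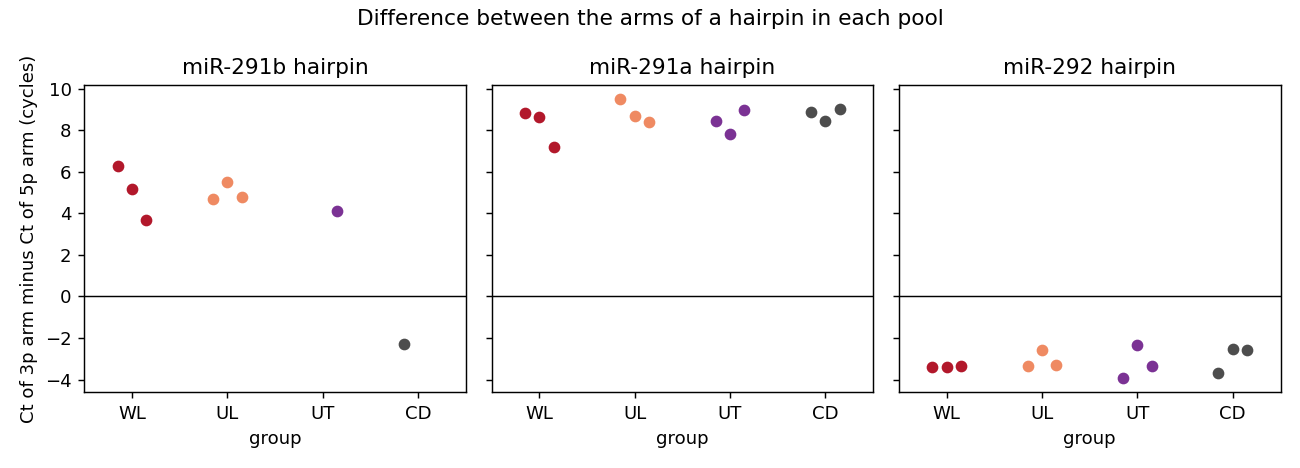
Ct of the 3p arm minus Ct of the 5p arm (cycles) in each pool for the miR-291a, miR-291b and miR-292 hairpins, by group. For miR-291b the 7 high-fat pools with both arms lie between 3.69 and 6.28, and CD1 lies below 0 at -2.31.

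By mean relative level, the 10 rows of the cluster were spread over most of the range of the 504 microRNAs. miR-291a-5p ranked 65th and was the only one of them above the mean of its pools. miR-294-3p ranked 323rd, miR-293-3p 330th, miR-290a-5p 351st and miR-292-3p 358th. miR-291b-5p (421st), miR-291a-3p (422nd), miR-292-5p (461st), miR-295-3p (466th) and miR-291b-3p (498th) were among the weakest. Assays with no common calibration differ in efficiency, so these ranks order signals and not molecules.

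The chosen rows differed in how much they varied. The standard deviation of the relative level over the pools was 2.92 cycles for miR-291b-5p, the 5th largest of all, 1.38 for miR-295-3p (50th), 1.34 for miR-291b-3p (51st) and 0.40 for miR-290a-5p (410th), beside a median of 0.55 over all microRNAs. The rows with wide spread were late in the reaction, except that miR-291b-5p was late in CD1 alone. Assays with a mean Ct of 30 or later made up 9.33% of all, 47 of 504.

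The deposited file gives each assay a database accession number, and the assays were also read in the order of these numbers. The 8 assays after miR-291b-5p in this order come from 3 chromosomes: miR-291b-3p from chromosome 7, miR-302b-5p, miR-302b-3p, miR-302c-5p, miR-302c-3p and miR-302d-3p from chromosome 3, and miR-376a-5p and miR-376b-5p from chromosome 12. CD1 was below every high-fat pool with a value in 8 of 8 of them, CD2 in 7 of 7 with a value and CD3 in 2 of 8. Of the 8, miR-302b-3p had no value in UT2. The same count over all microRNAs was not made, and the chosen row miR-291b-3p is among the 8, so nothing is read from these counts. The end of this stretch was set after its values were seen, and at the next assay, miR-467a-5p, none of the 3 CD pools lay below all high-fat pools. Before miR-291b-5p the pattern was uneven. miR-494 had all 3 CD pools below every high-fat pool with a value, and it had no value in UT1 and UT2. miR-503 had only CD1 below every high-fat pool. Whether the 8 assays shared a plate position or reagent was not tested.

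miR-291b-3p itself lies in this stretch. Relative to its own mean over the pools, miR-291b-3p stood at -0.48 to 1.67 in the high-fat pools, against -0.66 in CD1, -3.33 in CD2 and -1.25 in CD3. The median of its 10 nearest assays stood at 0.06 to 1.23 in the high-fat pools, against -2.48, -3.0 and 0.44 in the same 3 CD pools. Its CD1 and CD2 values were thus low together with those of its neighbours, and CD3 was low without them. Each arm of miR-291b was among the 10 nearest assays of the other.

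miR-291b-5p was low in CD1 by more than its neighbours. It stood at 0.43 to 1.6 in high-fat pools, where the neighbours' median was 0.06 to 1.17, against -7.18 in CD1, where the neighbours' median was -1.73. With that median subtracted, its difference from CD was 5.81 in WL, 5.97 in UL and 6.05 in UT. Its pattern of missing pools was shared by 1 other microRNA, miR-20b-5p, which stands 2 places before it in that order. miR-494, 3 places before miR-291b-5p, also had no value in UT1 and UT2. These 3 were the only microRNAs missing in both of those pools.

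For miR-290a-5p and miR-295-3p the nearest assays include other rows of the cluster. With the neighbours' median subtracted, the UT difference was 0.81 for miR-290a-5p and 2.02 for miR-295-3p. In UT3, miR-295-3p stood 3.56 cycles above its own mean while the median of its neighbours stood at 0.15.

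**Figure D4:**
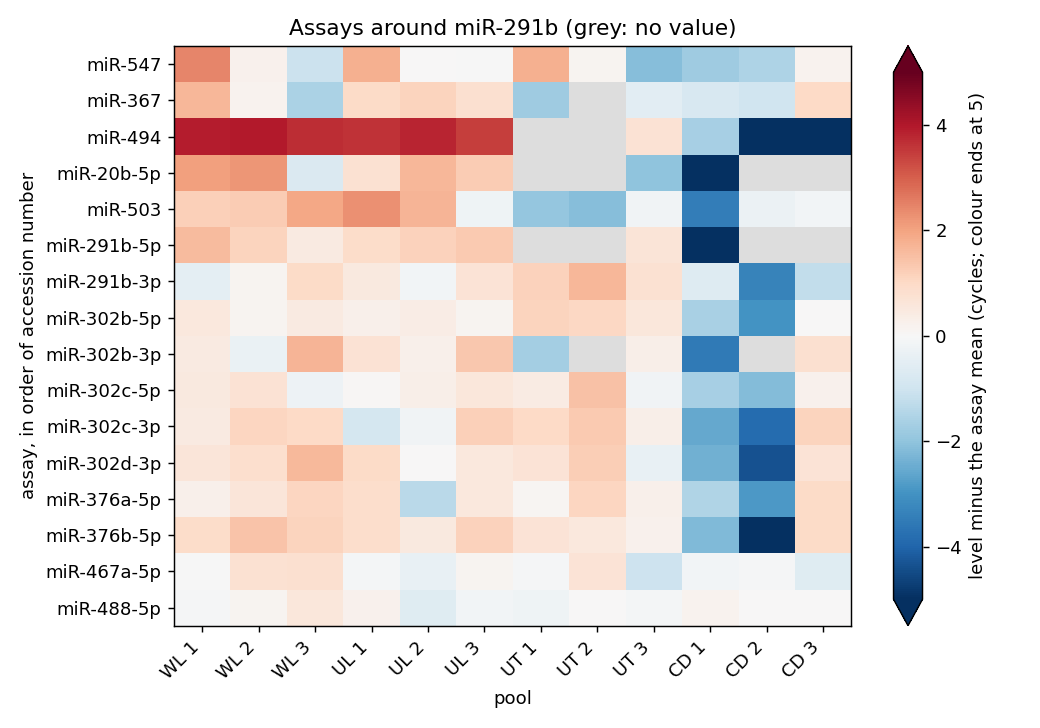
Relative level minus each assay's mean over the pools (cycles) for miR-291b-5p (place 0) and the assays around it in accession order, by pool; colours are limited at 5 cycles either way. CD1 and CD2 are low over places 1 to 8, and CD3 lies below every high-fat pool at places 1 and 2 of these.

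The profiles most like each chosen row over the 12 pools were named by the root mean square distance between centred levels, smallest first. For miR-291b-5p these were miR-20b-5p at 1.33 cycles, miR-494 at 1.40 and miR-503 at 1.53 over 8 pools, all within 3 places before it in accession order (median distance to all microRNAs 2.81). For miR-291b-3p they were miR-302b-5p at 0.64, miR-302c-5p at 0.86 and miR-184-5p at 0.88 (median 1.41), of which the first 2 lie 1 and 3 places after it. miR-290a-5p was nearest to miR-495-3p at 0.24, miR-687 at 0.29 and miR-211-3p at 0.30 (median 0.67). miR-295-3p was nearest to miR-690 at 0.67 over 9 pools, miR-431 at 0.69 and miR-344-3p at 0.71 (median 1.45). None of these 12 nearest profiles belongs to the cluster itself. The cluster makes up few of the 480 to 503 microRNAs compared with each chosen row, so nothing is read from this.

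Other microRNAs carry the core AAGUGC of the stem cell seed at the start of the molecule or shifted by a base. Of 396 assays matched to a RefSeq mature sequence, 7 had it at bases 2 to 7, and these were 4 rows of the cluster (miR-291a-3p, miR-291b-3p, miR-294-3p and miR-295-3p) with miR-302b-3p, miR-302d-3p and miR-350-5p. With miR-302a-3p, miR-302c-3p and the miR-17 family, whose members are known for promoting cell proliferation, 11 relatives outside the cluster were measured. None passed in any of the 6 comparisons (limma). Their differences from CD were above 0 for 9 of 11 in WL, 8 of 11 in UL and 7 of 11 in UT, with medians of 0.47, 0.29 and 0.10.

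In WL and UT the 3 relatives with the largest differences, miR-20b-5p, miR-302c-3p and miR-302d-3p, stand within 6 places of miR-291b-5p in accession order. miR-302d-3p had 3.05 in WL, 2.52 in UL and 2.53 in UT (limma adjusted p = 0.313, 0.995 and 0.395), and miR-302c-3p had 2.59, 1.80 and 2.63 (limma adjusted p = 0.486, 0.995 and 0.395). miR-20b-5p had 6.42 in WL, 6.46 in UL and 3.20 in UT against the single CD pool with a value, the UT value being 1 pool too, so only the differences are given. miR-302a-3p, which comes from the miR-302 cluster too but stands 156 places before miR-291b-5p, had -0.55, -0.03 and -0.38 (limma adjusted p = 0.93, 0.995 and 0.812). miR-350-5p, which has the 7-base seed of miR-291b-3p, had 2.12, 0.13 and 1.27 (limma adjusted p = 0.608, 0.995 and 0.701). The miR-17 family members other than miR-20b-5p lay between -0.74 and 0.69.

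**Figure D5:**
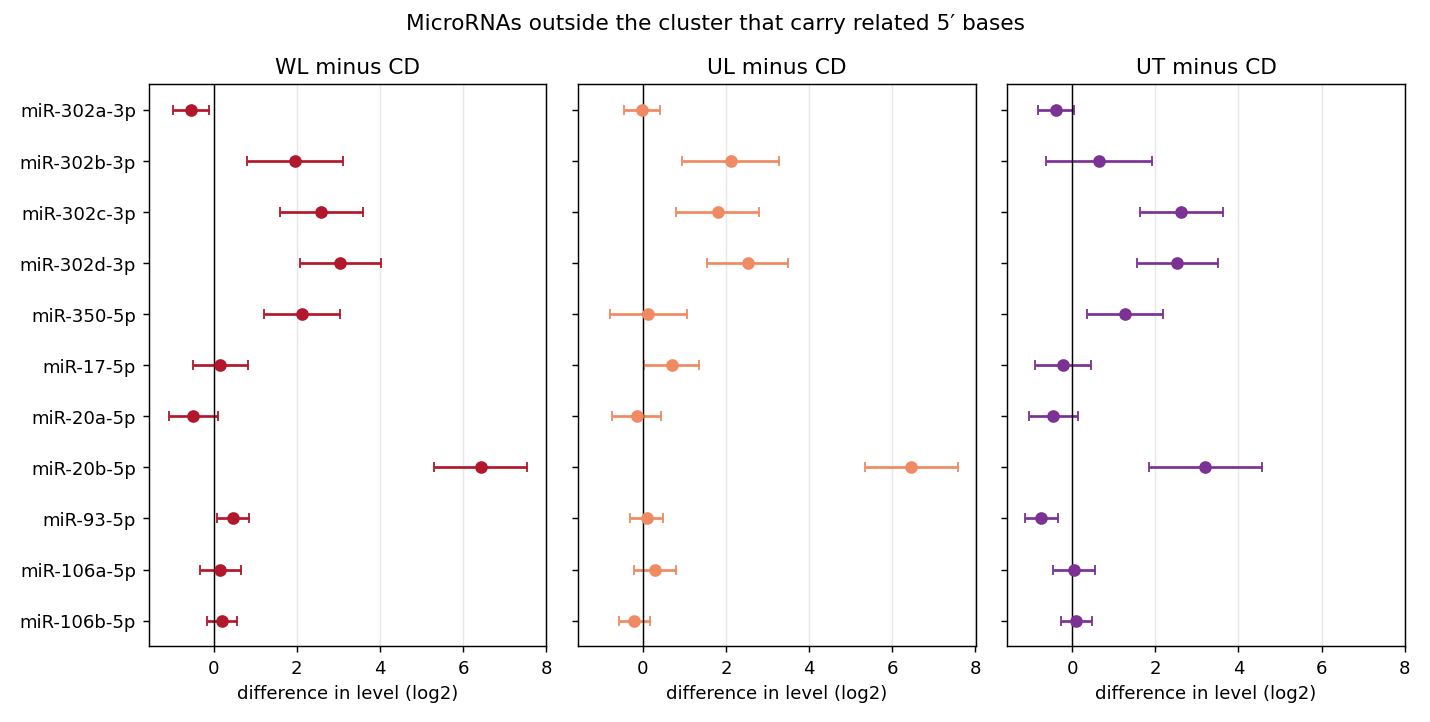
Difference in relative level (log2, with the standard error) between each high-fat group and CD for the 11 measured relatives outside the cluster. miR-20b-5p and miR-302b-3p, miR-302c-3p and miR-302d-3p lie to the right of 0 in all 3 comparisons, and miR-302a-3p to the left.

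Markers of other cell types were read beside these results. For the pluripotent list (miR-302 and miR-367 rows, 8 of 9 entries measured), the pool medians of the relative level ran from -5.50 to -5.35 in WL, -5.79 to -5.43 in UL and -5.90 to -4.03 in UT, against -8.08 to -5.66 in CD. This list holds 5 of the 8 assays of the stretch described above, so it moved with them. Its summed level overlapped between all groups. The fat tissue list (miR-143-3p, miR-26a-5p, miR-103-3p and others, 7 of 8 entries measured) had medians of 3.31 to 4.24 in WL, 3.52 to 4.16 in UL, 2.77 to 3.70 in UT and 3.76 to 3.92 in CD, well above the mean microRNA. The epithelial list (8 of 8) ran from 1.54 to 4.24 in WL, 2.35 to 3.42 in UL and 0.46 to 2.17 in UT, against 1.31 to 3.58 in CD, and the leukocyte list (6 of 6) from 2.71 to 3.45, 2.19 to 3.21 and 1.96 to 2.64, against 1.64 to 3.21. The male germ cell and epididymis list (11 assays for 18 entries) ran from -1.56 to -0.27 in WL, -1.24 to -0.28 in UL and -1.10 to 0.60 in UT, against -1.49 to -0.36 in CD. Their part in the levels of the cluster was not tested.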

How the data were processed

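Per the labels' protocols, a miRNeasy kit was used to extract RNA from roughly 22 mg of tissue; the sources used here do not state the PCR platform or the threshold rule. The authors deposited raw Ct values per pool, ratios that the file headers describe as normalized to housekeeping genes, and fold changes of group means. The deposited ratios grew with Ct, opposite to the header, so the Ct table was used. Of 507 rows, 1 repeated row was dropped, leaving 504 microRNAs and 2 reference RNAs (U6 and RNU-43). Relative levels were fitted with limma 3.58.1 in R 4.3.3 (lmFit and eBayes, two-sided, all 12 pools in 1 model, 4 groups). P-values were adjusted by Benjamini-Hochberg over the 504 microRNAs, with a threshold of 0.05. A filter for a Ct under 35 in at least 3 pools removed 0 microRNAs. A missing pool was left out of the fit of that microRNA, so the miR-291b-5p differences rest on 1 CD pool. No depth applies to Ct values, and the number of pools limits precision: the median SE of a difference was 0.43 to 0.44. The script was tested on simulated data.

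The 4 microRNAs named are those chosen, with all other rows of the cluster, relatives sharing the AAGUGC core, the assays around miR-291b in accession order and the 3 nearest profiles of each. The members and lists were chosen with earlier results of these data known. Alternatives changed the scaling, the treatment of late and missing values, the filter, the variance model, the groups fitted, the neighbour correction, the replicate block and the pools included. RefSeq held no promoter entry for these hairpins, and none is shown.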

Additional observations from a re-analysis of the deposited data

How the results depend on the processing

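Counts of microRNAs past the limma threshold depended on the processing, and the cause was not tested. WL against CD, with 3, gave 0 with Ct over 35 taken as missing, 0 with complete microRNAs only and 1 with only the 2 groups fitted. UL against CD, with 3, gave 5 with RNU-43 scaling, 0 with Ct over 35 missing, 0 with complete microRNAs only and 1 with trend and robust variance. UT against CD, with 7, gave 12 with RNU-43 scaling, 3 with missing and late values at Ct 35, 1 with complete microRNAs only and 4 with the neighbours subtracted. WL against UL, with 0, gave 1 with U6 scaling. WL against UT, with 0, gave 1 with RNU-43 scaling and 9 with U6 scaling. UL against UT, with 0, gave 4 with RNU-43 scaling, 5 with U6 scaling, 2 with no scaling and 5 with only the 2 groups fitted. Leaving out 1 pool at a time gave 2 to 6 in WL against CD, 2 to 6 in UL against CD, 1 to 11 in UT against CD, 0 to 1 in WL against UL, 0 to 12 in WL against UT and 0 to 8 in UL against UT. The highest of these came without WL3, except for the 6 in WL and in UL against CD, without CD3. The lowest in UT against CD came without UT3, and 2 passed without CD2 or UT1, 3 without UL2 or UL3 and 4 without CD1 or UL1. In UL against CD 5 passed without WL3. In WL against UT 1 passed without CD1 or UT2. In UL against UT 4 passed without WL2 and 1 without CD1 or UL1.

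Replicate numbers do not pair the pools: same-numbered pools had correlated deviations of -0.27 to 0.26, and 5 of 12 pools correlated best with a pool of their own number. With the replicate number as a block, 4 microRNAs passed in UT against CD and 1 in UL against UT.

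Among the chosen rows, 20 of 597 alternative values had the opposite sign, 11 of them within the spread between pools of the main value, and the other 9 are these. Subtracting the neighbours gave -0.58 (WL) and -0.45 (UL) for miR-291b-3p against CD. It also gave -0.24 (WL) and -0.08 (UL) for miR-291b-5p against UT. RNU-43 scaling gave 0.18 for miR-290a-5p in UL against CD and -0.18 in WL against UL. It gave -0.72 in WL against UT and -0.28 in UL against UT for miR-291b-5p. U6 scaling, which loses UT1 and WL3, gave 0.46 for miR-291b-5p in WL against UL. RNU-43 scaling shifted the median of all microRNAs by 0.37 in UL against CD, -0.35 in WL against UL, -0.72 in WL against UT and -0.38 in UL against UT. U6 scaling shifted it by 0.32 in WL against CD, 0.37 in WL against UL and 0.45 in WL against UT. Of the values against CD that kept their sign, 15 moved by more than that spread. Among the high-fat groups, values that kept their sign were not counted as moved, whatever their size. The largest such move was in miR-291b-5p, at 5.12 in WL against UT and 5.21 in UL against UT with missing and late values at Ct 35.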

Other observations

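The authors' deposited table of fold changes gives ratios that grow with Ct, so a ratio under 1 stands for an earlier signal in the high-fat group. In the authors' deposited table, the UT ratio was 0.00454 for miR-291b-5p, 0.105 for miR-291b-3p, 0.322 for miR-295-3p and 0.674 for miR-290a-5p. All 506 rows of the UT column matched the mean of the 3 UT pools over CD, taken over pools with a value, within a tolerance of 0.0001 on the log2 scale. For miR-291b-5p that ratio was UT3 over CD1, its only UT and CD pools with a value. The column named for UL in the authors' deposited table matched the mean of UL1, UT2 and UT3 in all 506 rows, and the column named for WL matched that of UL1, UL2 and UT3.

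For the chosen rows this changed the side of 1 in 1 of 4 WL values and 2 of 4 UL values. miR-295-3p has 0.85 for UL in the authors' deposited table and 1.27 when recomputed from the 3 UL pools. For miR-290a-5p the authors' deposited table has 0.916 for WL and 0.787 for UL, and the ratios recomputed from the pools of those groups were 1.06 and 1.16. In the 6 context rows the side of 1 changed in 4 WL values and 3 UL values, against the authors' deposited table.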
